A study of Arabidopsis thaliana with 8 samples.

Results

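At a growth temperature of 26°C the as2-1 rh10-1 double mutant of Arabidopsis forms filamentous leaves, and the genes described here are those whose signal in the as2-1 rh10-1 array lay outside the range of the as2-1, rh10-1 and Col-0 arrays by at least 1 on the log2 scale, that is, at least 2-fold beyond the nearest of the other 3. There were 304 such genes among 8041 genes with a usable signal, of 13074 genes that could be named. The as2-1 rh10-1 signal was above the other 3 for 136 genes (1.69% of the 8041) and below them for 168 (2.09%). These genes were selected on the 26°C signals, so their 26°C values are a description. The 22°C arrays took no part in the selection.

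The series consists of 8 ATH1 GeneChip arrays, 1 for each of as2-1 rh10-1, as2-1, rh10-1 and Col-0 at 26°C and at 22°C. RNA came from shoot apices with leaf primordia of soil-grown plants, 15 days old, under 16 h of light and 8 h of darkness. Plants of as2-1 carry a mutant allele of AS2 (Asymmetric Leaves2) in material crossed back to Col-0, and rh10-1 plants carry an amino acid substitution in RH10 (RNA helicase 10) that was found in mutagenised as2-1 seeds and is regarded as temperature sensitive. The double mutant carries both alleles, and Col-0 is the wild type. With 1 array for each genotype and temperature there was no replicate check and no test, and an effect of a genotype cannot be told apart from a property of its array. In whole apices, fewer cells of a type and less RNA per cell cannot be told apart either.

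AS2 acts with AS1 in a nuclear complex that represses KNOX homeobox genes and the abaxial (lower side) determinants ETT/ARF3 and ARF4 in young leaves, and so allows the adaxial (upper) side to form. A leaf that has only abaxial identity does not expand a blade and grows as a filament. RH10 is a DEAD-box helicase of the nucleolus, related to proteins of the small subunit processome, the particle that makes the RNA of the small ribosomal subunit.

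The arrays at 26°C had medians of 76.7 to 79.9 and trimmed means of 198.3 to 198.4 signal units, so they lay on a common scale. The usable genes were those above the 40th percentile of an array (39.1 to 44.5 units at 26°C) in at least 1 of the 4 arrays. The 20th percentile, under which a signal is called low here, lay at 8.9 to 11.5 units over all 8 arrays. RH10 (AT5G60990) gave 261.1 in as2-1 rh10-1, 293.4 in as2-1, 394.1 in rh10-1 and 347.8 in Col-0, which checks no label because the allele is a substitution. Neither AS2 nor ETT/ARF3, ARF4 and the class 1 KNOX genes were analysed here. Of 18 genes entered as shoot meristem and organ boundary markers only LAS, a regulator of axillary meristems, was usable. It gave 53.1, 21.5 and 24.3 in as2-1 rh10-1, as2-1 and rh10-1, and 33.3 in Col-0, and was usable only through the as2-1 rh10-1 array. The label of the tissue could therefore hardly be checked with these genes. Of the markers of root, pollen and seed, none was usable.

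The double mutant had more genes outside the range of the other genotypes than any other genotype had at 26°C, among usable genes. By the same rule as2-1 was above the other 3 for 22 genes (0.274%) and below for 92 (1.14%), rh10-1 was above for 26 (0.323%) and below for 61 (0.759%), and Col-0 was above for 30 (0.373%) and below for 68 (0.846%). As a ratio of counts, though not in percentage points, the difference was wider among the 4020 brighter genes, those with a mean signal above the median of 157.5 units. There the double mutant lay above for 34 genes (0.846%) and below for 32 (0.796%). The other genotypes lay above for 3 genes in as2-1 (0.0746%), 6 in rh10-1 (0.149%) and 1 in Col-0 (0.0249%), and below for 7 in as2-1 (0.174%), 7 in rh10-1 (0.174%) and 4 in Col-0 (0.0995%). Without any filter on low signals the double mutant no longer stood apart, with 488 genes above and 565 below, against 235 and 711 in as2-1, 355 and 530 in rh10-1 and 509 and 473 in Col-0. When any distance from the range was counted, the double mutant lay above for 2377 genes (29.6%) and below for 2551 (31.7%). The other genotypes then lay above for 1760 genes in as2-1, 1885 in rh10-1 and 2004 in Col-0. They lay below for 1765 in as2-1, 1699 in rh10-1 and 2017 in Col-0.

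**Figure D1:**
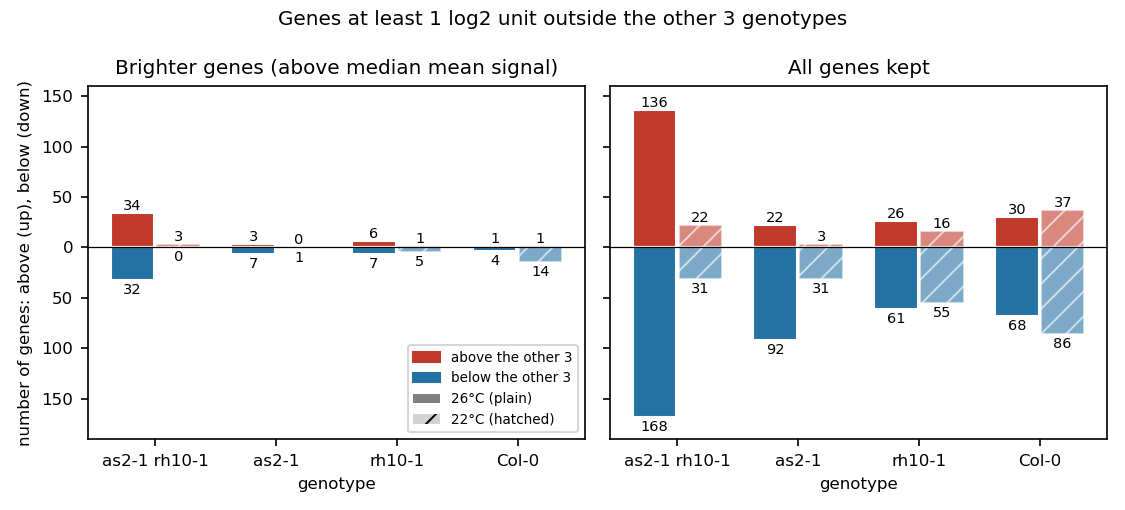
Number of genes (y axis) for which 1 genotype (x axis) lay above the other 3 genotypes of its temperature (upward bars) or below them (downward bars) by at least 1 on the log2 scale, at 26°C (plain) and 22°C (hatched), for the brighter genes, above the median of mean signal (left) and among all usable genes (right). The as2-1 rh10-1 bars at 26°C, 136 up and 168 down, are the tallest in the right panel, and at 22°C they stand at 22 and 31.

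At 22°C the excess of the double mutant was not seen. The as2-1 rh10-1 array at 22°C was above the other 3 for 22 of 7943 genes (0.277%) and below for 31 (0.39%), and among the 3971 brighter genes it was above for 3 (0.0755%) and below for 0 (0.0%). Against all 7 other arrays of the series, both temperatures included, the as2-1 rh10-1 array at 26°C was above by at least 1 for 84 genes (1.04%) and below for 104 (1.29%), so for these members it held the extreme value of the series. The bars of the counts by genotype show both temperatures.

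The size of the departures was as follows. The median distance from the nearest other array was 1.25 for the genes above and -1.45 for those below, on the log2 scale, and 19 and 40 genes lay beyond 4-fold. The distance exceeded the whole range of the other 3 arrays for 96 of the 136 genes above and for 155 of the 168 below. These counts follow in large part from the selection, which required a distance of at least 1. Nearest to the double mutant lay rh10-1 for 71 of the genes above and 99 of those below, as2-1 for 32 and 52, and Col-0 for 33 and 17. No share over all usable genes is given for the nearest genotype, so closeness to rh10-1 cannot be called particular to these genes. Over the same genes the median log2 ratio to Col-0 was -0.03 above and -0.18 below for as2-1, and 0.34 above and -0.36 below for rh10-1. The other 3 arrays spanned a median of 0.94 for the genes above and 0.72 for those below, wider than the 0.46 over all usable genes.

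Low signals bear on both directions in different ways. Of the genes above, 57 were usable only through the double mutant's own array, so their departure upward was built into the selection. Of the genes below, 43 had a double mutant signal under the 20th percentile of that array. Among the brighter genes, the distance exceeded the range of the other 3 for 30 of the 34 genes above and 29 of the 32 below, which also follows in large part from the selection.

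**Figure D2:**
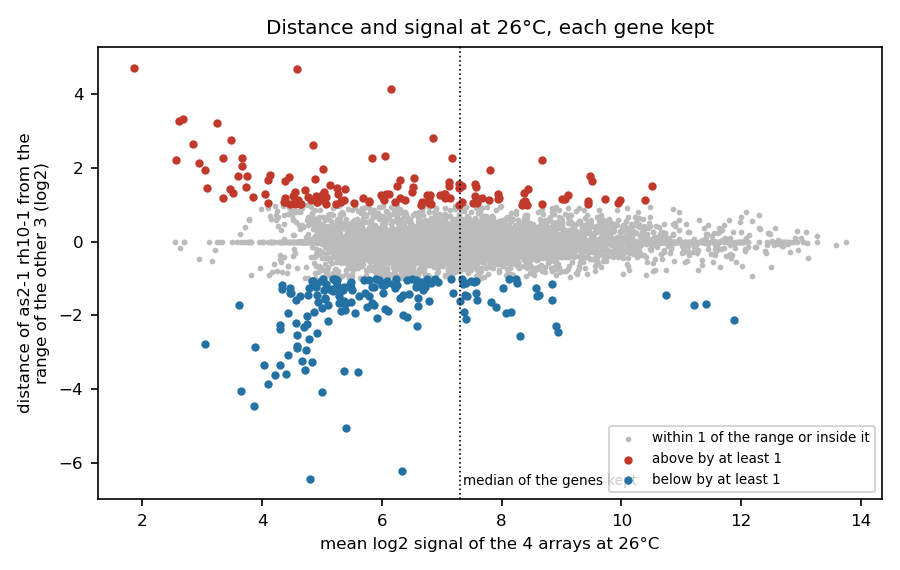
Each point is a usable gene. The x axis is its mean log2 signal over the 4 arrays at 26°C and the y axis the log2 distance of as2-1 rh10-1 from the range of the other 3 (0 when inside). Coloured points are the genes at least 1 above or below, and the dotted line is the median of the usable genes. The largest distances, up to 4.72 above and -6.42 below, occur at low mean signal.

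The selection has a sharp edge. Just past it lay AT5G25570 and AT5G59960 (1.002 each) and, on the lower side, AT4G09160 (-1.001). Just short of it lay AT3G19030 (0.998) and AT3G10880 (0.994), with AT5G52030 (-0.997) on the lower side. AT2G32430, which was selected, and RAP, which was not, lay closer to the lower threshold than 3 decimals can show.

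Functions could be assigned to few of the members. A gene name was on hand for 46 of the 304 (15.1%), against 15.2% of the usable genes, and the others are given by their locus codes alone. The named members do not form a selection by signal: they are described whatever their level, a choice made after their values had been seen.

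The greatest distances above, among genes with the double mutant and nearest signals over the 20th percentile and 1 of them over the median, belonged to loci without a name. AT1G66860 gave 311.0 in as2-1 rh10-1 against 12 in as2-1, 7.7 in rh10-1 and 11.6 in Col-0, 4.70 above the nearest on the log2 scale. The 3 other signals lay at or near the 20th percentile of their arrays, so this distance has no firm size. AT3G44970 gave 957.3 in as2-1 rh10-1 against 17.2, 28.3 and 54.3 in as2-1, rh10-1 and Col-0, 4.14 above the nearest on the log2 scale. At 22°C the same gene gave 463.7 in as2-1 rh10-1 and 446.0, 307.4 and 247.6 in as2-1, rh10-1 and Col-0. Its 22°C signals thus lay within 2-fold of each other and between its extremes at 26°C. AT3G22550 gave 722.0 in as2-1 rh10-1 against 53.8, 103.6 and 44.6, and AT3G18280 gave 2228.5 against 155.9, 479.4 and 170.8 in as2-1, rh10-1 and Col-0. In AT3G18280, AT2G40200 (440.1 against 13.4, 91.9 and 19.2) and AT4G23680 (883.4 against 112.7, 227.7 and 108.6) rh10-1 stood above both as2-1 and Col-0, between them and the double mutant.

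The other 6 genes of this set lay 1.96 to 2.63 above the nearest array on the log2 scale. They were AT3G59270, AT3G02500, AT5G01740, AT3G16330, AT1G66830 and AT3G28540. Of the 12 genes, AT1G66860, AT3G59270, AT3G16330, AT1G66830 and AT3G28540 were usable only through the double mutant's array. AT5G01740 gave 540.5 in as2-1 rh10-1 against 111.7, 66.5 and 109.0 in as2-1, rh10-1 and Col-0. At 22°C it was 0.58 above the range, AT3G44970 was 0.06 above, and 5 others were inside. The remaining 5, AT1G66860, AT2G40200, AT1G66830, AT3G28540 and AT4G23680, were not usable at 22°C.

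**Figure D3:**
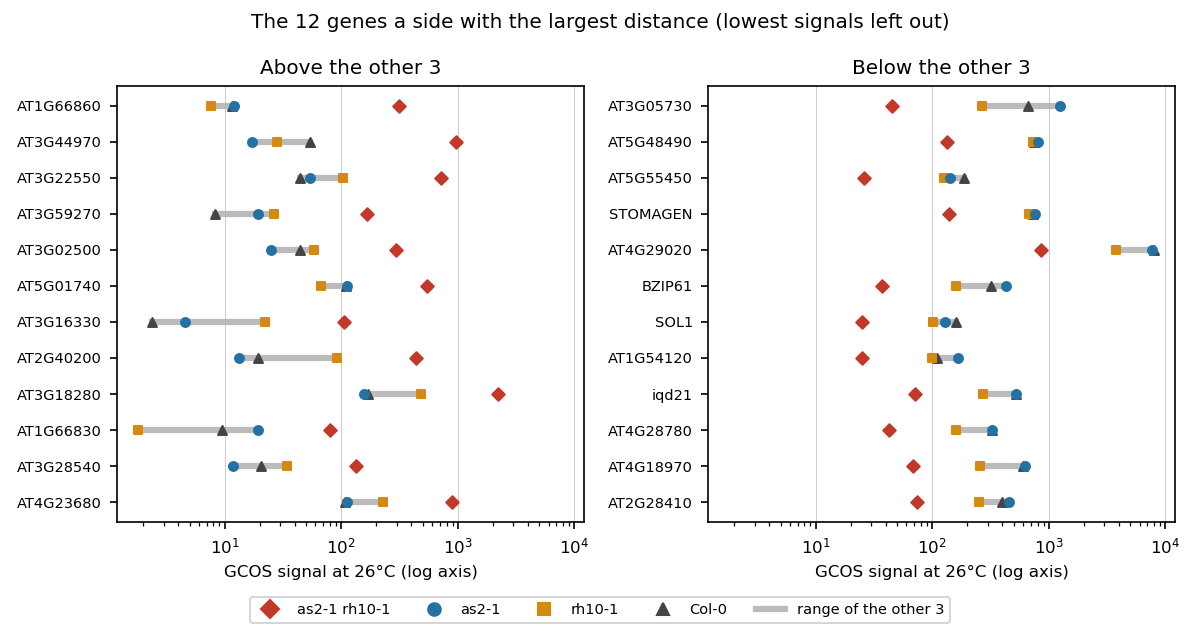
Signals at 26°C on a log axis for the 12 genes above and the 12 genes below with the largest distance, after leaving out genes whose double mutant or nearest signal lay under the 20th percentile. Red diamonds are as2-1 rh10-1, blue circles as2-1, orange squares rh10-1 and grey triangles Col-0, and the pale bar spans the other 3. Every red diamond lies at least 3.4-fold outside its bar.

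Below, the same criterion gave a set with 4 named genes. AT3G05730 gave 45.4 in as2-1 rh10-1 against 1254.7, 265.9 and 656.3 in as2-1, rh10-1 and Col-0, 5.9-fold under the nearest. AT5G48490 gave 133.9 in as2-1 rh10-1 against 814.3, 726.8 and 740.7, 5.4-fold under arrays that differed little among themselves. AT4G29020, among the brightest members, gave 862.1 in as2-1 rh10-1 against 7612.1, 3770.1 and 7994.7. In AT4G29020, AT4G28780 (42.9 against 325.6, 161.2 and 328.0) and AT4G18970 (68.7 against 619.7, 257.8 and 605.7) rh10-1 lay under as2-1 and Col-0, which were close to each other. The unnamed loci AT5G55450, AT1G54120 and AT2G28410 lay -2.29, -1.98 and -1.78 from the range on the log2 scale.

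STOMAGEN (EPFL9, AT4G12970) encodes a secreted peptide made in the inner leaf tissue that raises the number of stomata. Its signal was 139.2 in as2-1 rh10-1 against 763.7 in as2-1, 673.6 in rh10-1 and 737.8 in Col-0, 4.8-fold under the nearest array, while those 3 arrays spanned 0.18 on the log2 scale. At 22°C the signals were 581.4 in as2-1 rh10-1 and 529.3, 717.8 and 520.4 in as2-1, rh10-1 and Col-0, so that the double mutant lay inside the range. Among all 8 arrays the as2-1 rh10-1 array at 26°C had the lowest signal, and the next lowest was Col-0 at 22°C.

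Of the other stomatal genes 2 were usable. SPCH, the factor that starts the stomatal lineage, gave 15.8 in as2-1 rh10-1 against 25.1, 27.5 and 71.4 in as2-1, rh10-1 and Col-0. FAMA, which acts in the last step to guard cells, gave 23.0 in as2-1 rh10-1 against 42.5, 50.5 and 66.1. Both were below the other 3 by less than 1 (-0.67 and -0.89), and both single mutants were below Col-0.

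Among regulators of leaf shape, NGA2 (AT3G61970), a B3 factor of a family that restricts growth at the margins of lateral organs, gave 16.4 in as2-1 rh10-1 against 111.7, 53.7 and 116.7 in as2-1, rh10-1 and Col-0 at 26°C. At 22°C it gave 125.1 in as2-1 rh10-1 against 80.5, 97.0 and 79.3. The double mutant was the lowest of the 4 at 26°C and the highest at 22°C, by 0.37 on the log2 scale. NGA4, the other measured member of the family, was inside the range.

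SOL1 (AT3G22760), a cysteine-rich DNA-binding protein related to the cell division regulator TSO1, gave 24.9 in as2-1 rh10-1 against 129.7, 102.3 and 159.8 in as2-1, rh10-1 and Col-0 at 26°C. Its 22°C signals were 244.9 in as2-1 rh10-1 against 243.3, 250.2 and 240.9. The 4 arrays at 22°C were nearly equal for this gene. BZIP61 (AT3G58120), a leucine zipper transcription factor, gave 37.3 in as2-1 rh10-1 against 428.7, 159.9 and 321.0 at 26°C, and at 22°C its as2-1 rh10-1 signal of 146.9 lay among 50.7, 196.2 and 65.0.

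Genes of the IQD family encode calmodulin-binding proteins, several of which sit on microtubules. Of 12 usable members, 3 lay below by at least 1, 8 lay below by any distance, 1 lay above and 3 were inside the range, with a median distance of -0.37. For comparison 2.09% of all usable genes lay below by at least 1 and 31.7% by any distance. The family was picked after its values were seen. The gene iqd21 (AT3G49260) gave 71.1 in as2-1 rh10-1 against 520.8, 273.0 and 526.1 in as2-1, rh10-1 and Col-0, IQD24 (AT5G07240) gave 42.0 against 123.5, 98.2 and 157.3, and iqd33 (AT5G35670) gave 21.1 against 117.5, 105.5 and 75.0. At 22°C the double mutant was inside the range for iqd21 (356.1 against 376.5, 353.9 and 482.3) and above it by 0.18 for IQD24. The 1 member above, IQD23, was 0.62 above the range at 26°C.

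Auxin genes lay on both sides. GH3 enzymes join auxin to amino acids and so inactivate it, and YUCCA flavin monooxygenases make auxin. GH3.17 (AT1G28130) gave 707.2 in as2-1 rh10-1 against 285.1, 230.7 and 258.2 in as2-1, rh10-1 and Col-0, 2.5-fold above the nearest. GH3.3 (AT2G23170) gave 3.0 in as2-1 rh10-1 against 70.7, 50.4 and 96.2, and GH3.5 was inside the range (784.2 against 831.0, 420.5 and 610.7). At 22°C GH3.3 gave 145.4 in as2-1 rh10-1 against 149.9, 218.8 and 264.8, hence higher in every genotype than at 26°C. YUC4 (AT5G11320) gave 53.9 in as2-1 rh10-1 against 23.1, 12 and 2.9 in as2-1, rh10-1 and Col-0 at 26°C, and at 22°C it gave 21.8 against 22.2, 38.7 and 45.4. YUC4 was thus highest in the double mutant at 26°C and lowest in it at 22°C, there by only 0.03. YUC2 was inside the range, and IAA29, an auxin-response repressor (18.3 in as2-1 rh10-1 against 46.8, 29.6 and 55.1), was 0.69 below it. Of the auxin list 4 genes were usable, of which 1 was above and 1 below by at least 1, against 1.69% and 2.09% of all usable genes, and the 1 above, YUC4, was usable only through the double mutant's array.

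Members that encode enzymes of the cell wall lay on both sides, and are described singly. XTH32 (AT2G36870), which cuts and rejoins xyloglucan, gave 1792.3 in as2-1 rh10-1 against 572.3, 499.8 and 539.3 in as2-1, rh10-1 and Col-0, 3.1-fold above the nearest. At 22°C XTH32 was inside the range (903.8 against 1140.6, 857.8 and 855.0). Of the other 3 usable XTH genes, EXGT-A3 was 0.47 above the range at 26°C, XTH16 was 0.14 below it and XTH19 was inside. PMEPCRF (AT5G53370), a pectin methylesterase, gave 1345.4 in as2-1 rh10-1 against 327.7, 556.2 and 372.3. The neighbouring genes BGLU46 (221.7 against 58.6, 78.1 and 32.6) and BGLU45 (93.5 against 22.8, 29.8 and 33.8), glucosidases that act on the glucosides of lignin building blocks, were both about 2.8-fold above the nearest array. Of the 10 usable genes of the BGLU family 3 lay above by at least 1, 7 by any distance and 1 below, against 1.69%, 29.6% and 31.7% of all usable genes. BGLU45 was usable only through the double mutant's array. BGLU33 was the third of them (650.9 against 194.4, 307.9 and 297.3), and the family was chosen after its values were seen. The glucanase gene GH9B18 was on the other side, at 4.2 in as2-1 rh10-1 against 39.3, 21.8 and 41.6.

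Of 6 usable expansin, expansin-like and tubulin genes of the cell wall and tubulin list, none was a member, against 1.69% and 2.09% of all usable genes. By less than 1, 1 of them was above the range and 2 were below it, and 3 were inside. TUB1, a beta-tubulin, gave 159.6 in as2-1 rh10-1, 755.3 in as2-1, 129.5 in rh10-1 and 370.6 in Col-0. TUB6 gave 1279.0, 2884.9, 1088.1 and 2233.9 in the same order. In both TUB1 and TUB6 the double mutant lay inside the range and nearest to rh10-1. The other usable tubulin gene, TUB5, was 0.13 below the range. EXLA1, an expansin-like gene, was 0.45 above the range (353.0 in as2-1 rh10-1 against 252.0, 96.0 and 258.9).

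The next members above are described singly and form no list. HIS1-3 (AT2G18050), a linker histone known as inducible by drought, gave 1991.0 in as2-1 rh10-1 against 889.1, 734.7 and 398.7 in as2-1, rh10-1 and Col-0 at 26°C. At 22°C its 4 signals were 2.5 in as2-1 rh10-1 against 6.1, 9.4 and 14.2, too low for the gene to be usable. Of the cold, drought and abscisic acid list HIS1-3 was the 1 member among 4 usable genes, and COR15B was 0.77 below the range. Of all usable genes 1.69% were above by at least 1 and 2.09% below. FDH (AT5G14780), formate dehydrogenase, gave 1872.2 in as2-1 rh10-1 against 811.9, 909.1 and 678.0 at 26°C, and 139.4 against 273.2, 78.9 and 299.4 at 22°C. Both genes were higher in every genotype at 26°C than in any genotype at 22°C. JAL33 (AT3G16450), a jacalin-related lectin, behaved likewise, with 2353.0 in as2-1 rh10-1 against 1074.5, 646.6 and 641.3 at 26°C and 219.9 against 291.8, 118.4 and 186.1 at 22°C. Of the other lectins of its family JAL22 was 0.93 above the range at 26°C, and JAL23 and JAL34 were inside. FMO (AT1G12200), a flavin monooxygenase, gave 989.8 in as2-1 rh10-1 against 182.5, 364.7 and 223.0. HSA32 (AT4G21320), needed for lasting heat tolerance, gave 169.5 in as2-1 rh10-1 against 64.6, 74.6 and 47.7 at 26°C, while its 22°C signals were 49.7 against 46.8, 46.6 and 46.6. AAH (AT4G20070), allantoate amidohydrolase of purine breakdown, gave 200.5 in as2-1 rh10-1 against 96.4, 86.6 and 98.9.

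The remaining named genes above had no common role. AT1G68570 (NPF3.1), a transporter of the nitrate and peptide transporter family, gave 349.8 in as2-1 rh10-1 against 120.0, 112.4 and 127.1 in as2-1, rh10-1 and Col-0. UBC16, a ubiquitin-conjugating enzyme, gave 286.4 in as2-1 rh10-1 against 97.8, 92.9 and 117.7. BZIP24, a factor of the salt response, gave 92.5 in as2-1 rh10-1 against 34.1, 31.1 and 31.0. In these genes the other 3 arrays were close together, but BZIP24 was usable only through the double mutant's array. UGT72B3, a glucosyltransferase, gave 131.8 against 53.8, 60.9 and 21.9. WNK9, AT4G31615 (REM35), CML38 and CYP71B24 had at most 62.5 units in every 26°C array, with distances of 2.75, 1.35, 1.03 and 1.17. They too were usable only through the double mutant's array, so their departure upward was built into the selection.

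**Figure D4:**
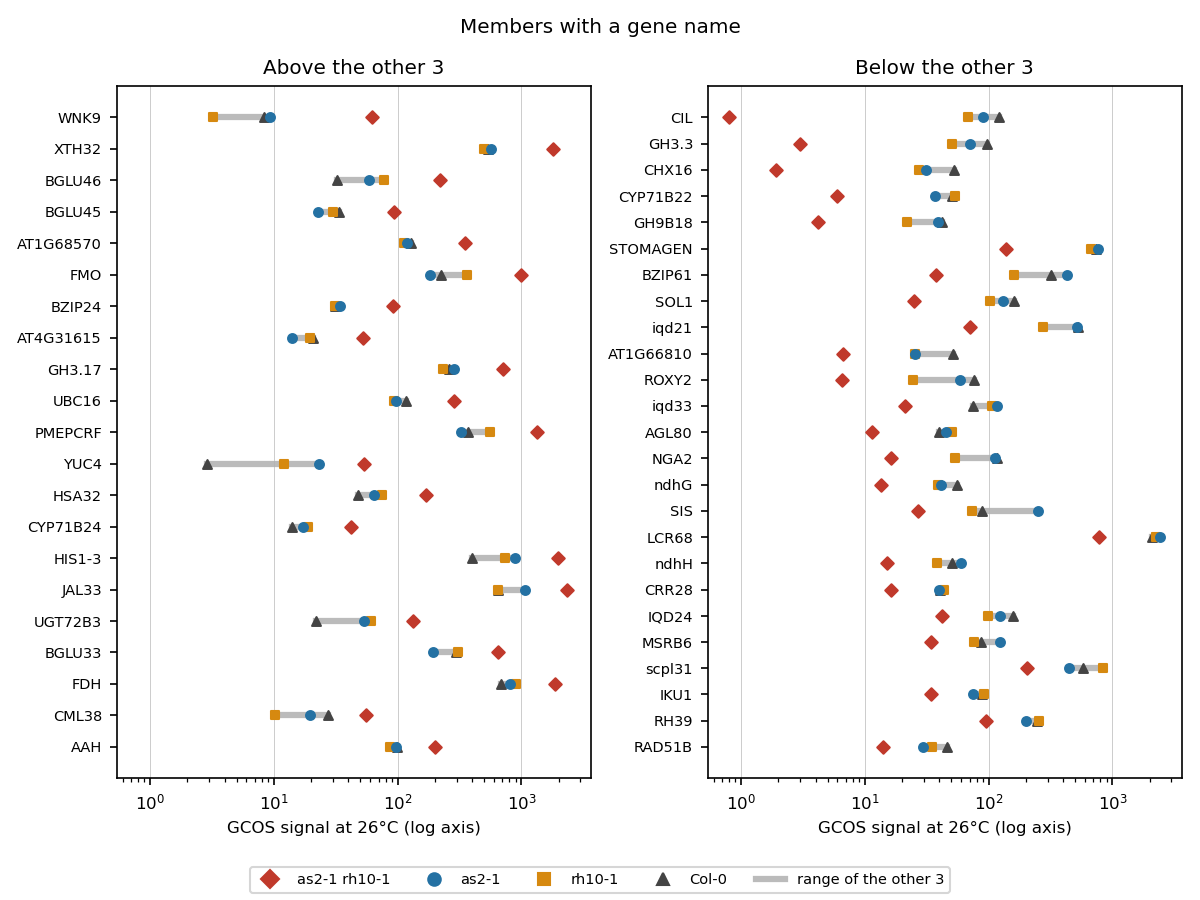
Signals at 26°C on a log axis for the 46 members with a gene name, 21 above (left) and 25 below (right), ordered by distance. Red diamonds are as2-1 rh10-1, blue circles as2-1, orange squares rh10-1 and grey triangles Col-0, and the pale bar spans the other 3. XTH32, FDH, JAL33, STOMAGEN and LCR68 are among the brighter members, and CIL, at 0.8 in as2-1 rh10-1, is the lowest.

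Some members below have a role in the chloroplast. CIL (AT4G25990), related to a regulator of protein import into chloroplasts, gave 0.8 in as2-1 rh10-1 against 90.3, 68.6 and 121.8 in as2-1, rh10-1 and Col-0 at 26°C. At 22°C CIL gave 128.7 in as2-1 rh10-1 against 85.8, 139.1 and 67.3, inside the range. Since 0.8 is far under the 20th percentile, the distance of -6.42 has no firm size, and it became -2.75 when lower signals were set to that percentile. On the same setting GH3.3 stood at -2.30, CYP71B22 at -1.84, CHX16 at -1.42, AT1G66810 at -1.30, ROXY2 at -1.26 and GH9B18 at -1.10. RH39 (AT4G09730), a helicase that matures chloroplast ribosomal RNA, gave 94.4 in as2-1 rh10-1 against 200.9, 256.5 and 246.5, and 298.0 against 293.9, 381.2 and 234.9 at 22°C.

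The plastid NDH complex passes electrons around photosystem I, and its subunits are encoded in part in the plastid. Of 17 usable genes for subunits and for CRR proteins needed for the complex, 3 lay below by at least 1 (2.09% of all usable genes did). By any distance 14 lay below (31.7% of all usable genes did), 1 lay above and 2 were inside, with a median distance of -0.23. The group was picked after its values were seen, and its plastid transcripts share their source. Every usable ndh gene of the plastid genome lay below. No share is given for other plastid-encoded genes, so the pattern cannot be called particular to this complex. The 3 members were ndhG (13.5 in as2-1 rh10-1 against 41.4, 39.2 and 55.2), ndhH (15.1 against 60.1, 38.5 and 50.8) and CRR28 (16.2 against 39.9, 43.8 and 40.2), none with a signal over 60.1. The brighter ndhI was at 7031.2 in as2-1 rh10-1 against 9466.6, 9727.9 and 9573.8, and at 22°C at 9546.0 against 7095.9, 7119.3 and 6359.1, the highest of the 4 there. Of the photosynthesis list LHCB4.1 was 0.23 below the range (6697.5 against 8736.5, 7840.2 and 8495.9), and LHCB4.2 and RCA were inside it.

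LCR68 (AT2G02130), a small protein of the defensin class, gave 773.4 in as2-1 rh10-1 against 2442.3, 2250.8 and 2086.7 in as2-1, rh10-1 and Col-0. At 22°C it gave 1910.4 in as2-1 rh10-1 against 2456.4, 1998.1 and 2692.0. The gene scpl31, for a serine carboxypeptidase-like protein, gave 204.7 in as2-1 rh10-1 against 449.2, 841.7 and 574.1. MSRB6, a methionine sulfoxide reductase, gave 34.2 against 122.6, 75.9 and 86.7, and IKU1, a regulator of seed size, gave 34.5 against 75.0, 91.8 and 88.7. SIS, AGL80, ROXY2, RAD51B, CHX16, CYP71B22 and AT1G66810 were at or below 27.0 units in as2-1 rh10-1, with distances of -1.07 (RAD51B, a DNA repair protein) to -3.84 (CHX16, a cation exchanger).

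None of the polarity and nucleolus genes that could be analysed was a member. Of 23 leaf polarity genes entered, 4 were usable. PHV, an adaxial homeodomain factor, gave 214.2 in as2-1 rh10-1 against 337.3, 397.1 and 410.3 in as2-1, rh10-1 and Col-0, 0.66 below the range. AGO7, the Argonaute of the small RNA pathway that limits ETT/ARF3 and ARF4, gave 108.4 against 35.1, 76.9 and 65.4, 0.50 above. YAB5, an abaxial factor, gave 218.0 in as2-1 rh10-1 against 176.2 in as2-1, 68.1 in rh10-1 and 62.6 in Col-0, so most of its departure from Col-0 was shared with as2-1. YAB3 was inside the range. Of 8 usable genes of the nucleolus and ribosome biogenesis list, 6 were below by less than 1 and 2 were inside, with a median of -0.10, while 31.7% of all usable genes were below by any distance. Over all 29 gene lists 46 entries were usable and 3 of them, GH3.3, YUC4 and HIS1-3, were members. GH3.3 was below and the others above, against 2.09% of all usable genes below and 1.69% above. YUC4 was usable only through the double mutant's array.

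The members were then followed to 22°C, where the arrays were independent of the selection. Of the 136 genes above at 26°C, 88 were usable at 22°C, and 25 of these (28.4%) were again above all 3 others by any distance, against 22.3% of the 7585 genes usable at both temperatures. Of the 168 below, 146 were usable, and 35 (24.0%) were again below, against 23.1%. By at least 1 on the same side there was 1 gene above (1.14%, against 0.237%) and 1 below (0.685%, against 0.211%). The 1 gene above was usable at 22°C only through the double mutant's array, so its departure upward there was built into the filter. The median log2 ratio of as2-1 rh10-1 to Col-0 over these genes was 0.10 at 22°C against 1.71 at 26°C for the genes above, and -0.04 at 22°C against -2.02 at 26°C for those below, the 26°C medians being fixed by the selection. Over all genes usable at both temperatures it was -0.03 at 22°C. At 22°C the members of both directions therefore lay near the background.

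The 2 genes outside on the same side at both temperatures were AT2G15880 and AT5G14230. AT2G15880 gave 412.7 in as2-1 rh10-1 against 198.9, 133.1 and 103.8 in as2-1, rh10-1 and Col-0 at 26°C, and 42.1 against 2.9, 5.5 and 18.9 at 22°C. At 22°C only its as2-1 rh10-1 signal passed the filter, just over the 40th percentile of that array (40.4). AT5G14230 gave 42.4 in as2-1 rh10-1 against 85.7, 113.3 and 167.4 at 26°C, and 30.2 against 71.6, 79.2 and 139.6 at 22°C. For AT5G14230 the order of the 4 genotypes was the same at both temperatures.

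**Figure D5:**
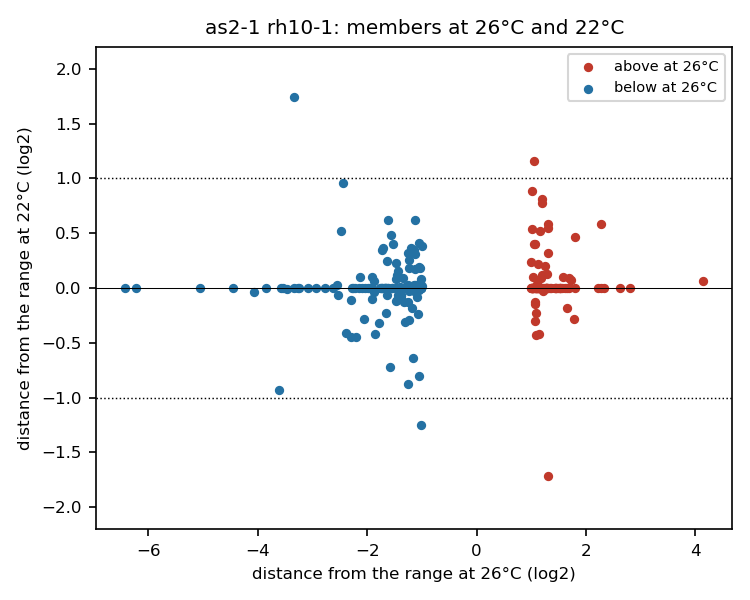
Log2 distance of as2-1 rh10-1 from the range of the other 3 genotypes at 26°C (x axis) and at 22°C (y axis) for the 234 members usable at 22°C, with 0 for a gene inside the range. Red points were above and blue points below at 26°C. Dotted lines mark a distance of 1 at 22°C, and 53 of the genes above and 72 of those below lie at 0 on the y axis.

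Members were spread over the 5 chromosomes. Genes above made up 1.27% (chromosome 5) to 2.11% (chromosome 2) of the usable genes, and genes below 1.67% (chromosome 2) to 2.47% (chromosome 3), and 2 members were plastid genes. There were 6 pairs of adjacent members, 5 of them on the same side, BGLU45 with BGLU46, AT4G03930 with AT4G03940 and AT5G57785 with AT5G57790 above, and AT3G20260 with AT3G20270 and AT5G02540 with AT5G02550 below. No share of adjacent pairs over all usable genes is given, so the pairs are a description and clustering was not tested. Of the last above pair, AT5G57785 was among the brightest genes above, at 4026.2 in as2-1 rh10-1 against 778.0, 1407.9 and 1037.7 in as2-1, rh10-1 and Col-0.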

How the data were processed

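Per the labels and methods, RNA from shoot apices was labelled with biotin by a 3′ in vitro transcription kit, hybridised to ATH1 arrays and summarised by the authors with GCOS. The deposited values are the GCOS signal of each of 22746 probe sets, a linear intensity already scaled between arrays, with the scaling target not given in the sources used here. Detection calls were not used here. The 9 signals of 0 were set to 0.1 and log2 was taken, with no further scaling.

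A gene was assigned to 14016 probe sets through the platform annotation and the TAIR10.1 gene table, and to 13513 exactly 1. Probe sets ending in _s_at or _x_at were left out, and a gene with several probe sets was represented by its brightest on average, giving 13074 genes. The other 8730 probe sets were not named here. Genes above the 40th percentile of an array in at least 1 of the 4 arrays of a temperature were kept (8041 at 26°C, 7943 at 22°C). The distance is log2 of as2-1 rh10-1 less the nearest of the other 3, or 0 inside their range.

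The genes named are the 12 a side with the greatest distance among those whose double mutant and nearest signals both exceeded the 20th percentile and 1 the median, up to 4 genes a list or family, those outside by 1 at both temperatures, 2 a side just inside and just outside the distance of 1, and, beyond that rule, all members with a gene name. Members and lists were chosen with earlier results of these data known, and families after their values were seen. No statistical test was run because each group has 1 array, whose precision the number of arrays limits. The script that makes the selection was run on simulated data with even noise and planted shifts larger than most distances seen here. That run checks the code, and does not measure how often the selection errs in these arrays. Promoter motifs and sequences were not analysed here. Python 3.11.15, numpy 2.4.6 and pandas 2.3.3 were used. Alternatives tried were quantile normalization, centring on array medians, a floor at the 20th percentile, other filters, other choices of probe sets, other distances, and leaving out each of the other 3 arrays.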

Additional observations from a re-analysis of the deposited data

Results flagged for a closer look

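For 8 members the double mutant lay at least 1 outside the other 3 genotypes on one side at 26°C and on the opposite side at 22°C, but only 2 of them, AT1G73040 and AT5G06400, were usable at 22°C. Of the 6 that were not, HIS1-3 is given because it has a gene name. The difference between temperatures was not tested, since each group has 1 array. HIS1-3 was 1.16 above the range at 26°C and at -1.29 at 22°C, where its 4 signals were between 2.5 and 14.2 and the gene was not usable. AT1G73040 was 1.3 above at 26°C (145.1 in as2-1 rh10-1 against 58.6, 46.1 and 59.1 in as2-1, rh10-1 and Col-0) and at -1.72 at 22°C (4.4 against 14.5, 15.8 and 79.0). AT5G06400 was at -3.34 at 26°C (2.9 against 29.3, 39.3 and 45.8) and 1.74 above at 22°C (48.5 against 14.5, 5.0 and 2.7). At 22°C AT5G06400 was usable only through the double mutant's array, so its departure upward there was built into the filter. In each of these 3 genes at least 1 of the signals behind the distances was under the 20th percentile of its array.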

How the results depend on the processing

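The counts of 136 genes above and 168 below depended mostly on the filter and on the distance. Without a filter on low signals there were 488 and 565, and with a filter at the array median 96 and 96. A distance of 1.5-fold gave 386 and 486, and 4-fold gave 19 and 40. Counting every probe set ending in _at, named or not, gave 247 and 317. Leaving out 1 of the other 3 arrays gave 175 to 283 genes above and 201 to 332 below, the highest in both directions without rh10-1. Quantile normalization gave 142 and 166 genes, with 131 and 157 shared with the selection, and centring on array medians gave 144 and 156, with 136 and 156 shared. The genes outside by 1 on the same side at 22°C, 1 above and 1 below, became 24 and 47 without a filter, 0 above with the filter at the median, and 2 below under quantile normalization. Of 76 named genes 73 stayed on their side of the distance under quantile normalization, 71 under centring and 76 with low signals raised to the 20th percentile. Those that crossed it were AT2G32430, AT4G09160, AT3G10880 and AT3G19030, at the edge of the selection, and AT5G14230 (-0.99 after centring). No paired analysis was possible because each group has 1 array.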
